A study of Mus musculus with 7 samples.

Results

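The beta-defensins are a family of 42 genes on this array, out of 21154 genes that could be named on it. They were chosen by symbol, as Defb followed by a number, among the genes to which the accession of a probe belongs. The family was picked out because its levels were already known to vary between these arrays, so its group difference is given as a description. In all, 46 probes read them, with 2 probes each for Defb28, Defb36, Defb41 and Defb45.

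The study has 7 arrays of mouse RNA and asks, by its title, what β-catenin activation does in the dermal sheath, the mesenchymal layer around the hair follicle. The 4 cΔex3 arrays are the β-catenin activation group and came from 6 mice, with 2 mice pooled on array 2 and 2 on array 3. The 3 control arrays came from 4 mice, with 2 pooled on array 3. All mice were at postnatal day 15, and the cells were sorted from dorsal skin as YFP-positive cells without CD34, integrin α8 or alkaline phosphatase on their surface. The labels used here name no strain, Cre driver, reporter locus or sex, and no allele of the control mice. As sorted populations, the arrays cannot tell fewer cells of a type from less RNA per cell.

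Beta-defensins are small secreted cationic peptides held together by conserved disulphide bonds. A few of them, among them Defb1, Defb3, Defb4 and Defb14, are known from skin, airway and oral epithelia, where they kill microbes and attract leukocytes through chemokine receptors. Most members of the mouse family are known instead from the epithelium of the epididymis, the duct in which sperm mature, where they coat sperm and bear on their motility. Deletion of a chromosome 8 group of these genes is known to make male mice sterile.

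The RefSeq gene order places the 42 genes in 5 groups of neighbours. Defb18 and Defb41 lie on chromosome 1, 11 genes from Defb23 to Defb25 on chromosome 2, 14 genes from Defb40 to Defb7 and another 10 from Defb33 to Defb13 on chromosome 8, and 5 from Defb48 to Defb42 on chromosome 14. RefSeq promoter windows of 300 bases, from 250 before the start to 50 from it on build GRCm38.p6, were at hand for 29 of the 42 genes, 30 windows in all. The following 5 are shown for members whose patterns across the arrays the results turn on, a choice made after their values had been seen. Defb15 and Defb42 were bright on cΔex3 arrays 2, 3 and 4, Defb43 was above background on cΔex3 array 4 alone, and Defb45 and Defb36 are neighbours with opposite patterns. Each runs 5′ to 3′ on the strand of its gene. Capitals mark every TATAAA, the core of a TATA box, on the gene's strand, and every AGAACA, a half-site that steroid hormone receptors bind, on either strand, where the opposite strand reads TGTTCT.
Defb15 (chr8:21932661-21932960, minus strand): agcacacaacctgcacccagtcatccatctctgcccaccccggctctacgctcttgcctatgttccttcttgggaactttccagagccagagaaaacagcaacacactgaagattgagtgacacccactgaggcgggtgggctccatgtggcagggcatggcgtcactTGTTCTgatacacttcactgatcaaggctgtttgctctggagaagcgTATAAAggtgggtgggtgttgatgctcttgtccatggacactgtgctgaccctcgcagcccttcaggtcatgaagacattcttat
Defb42 (chr14:63046741-63047040, plus strand): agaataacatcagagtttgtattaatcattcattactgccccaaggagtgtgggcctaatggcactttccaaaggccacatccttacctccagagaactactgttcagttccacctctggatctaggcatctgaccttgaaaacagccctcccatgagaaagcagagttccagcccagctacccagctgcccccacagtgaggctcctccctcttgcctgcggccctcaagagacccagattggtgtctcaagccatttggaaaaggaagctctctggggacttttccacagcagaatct
Defb43 (chr14:63011521-63011820, plus strand): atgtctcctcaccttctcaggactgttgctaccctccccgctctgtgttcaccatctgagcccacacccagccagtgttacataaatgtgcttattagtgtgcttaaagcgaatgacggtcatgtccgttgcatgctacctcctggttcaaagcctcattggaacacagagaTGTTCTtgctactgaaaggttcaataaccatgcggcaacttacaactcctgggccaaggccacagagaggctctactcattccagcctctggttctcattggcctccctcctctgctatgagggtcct
Defb45 (chr2:152596436-152596735, minus strand): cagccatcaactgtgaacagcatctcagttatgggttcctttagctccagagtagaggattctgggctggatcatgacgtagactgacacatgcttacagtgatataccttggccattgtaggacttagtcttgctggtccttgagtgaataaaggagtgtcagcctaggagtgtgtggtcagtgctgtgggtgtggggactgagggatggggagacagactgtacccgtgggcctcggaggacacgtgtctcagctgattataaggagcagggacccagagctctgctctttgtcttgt
Defb36 (chr2:152604077-152604376, plus strand): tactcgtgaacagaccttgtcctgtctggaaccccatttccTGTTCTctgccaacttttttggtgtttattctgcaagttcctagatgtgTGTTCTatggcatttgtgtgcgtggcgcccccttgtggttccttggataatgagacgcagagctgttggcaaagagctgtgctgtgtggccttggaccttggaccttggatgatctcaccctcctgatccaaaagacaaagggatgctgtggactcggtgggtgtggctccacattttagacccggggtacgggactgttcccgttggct

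Of these 5 windows, Defb15 held both motifs, Defb43 and Defb36 held AGAACA only, and Defb42 and Defb45 held neither. AGAACA was found on either strand in 18 of the 30 member windows (60%) and in 18.97% of 32851 RefSeq windows of the same length. The median GC content was 48.33% in the member windows and 52.67% in all windows, and the genes are known to have arisen by duplication, so that their windows are not independent. TATAAA on the gene's strand was in 3 member windows (10%), those of Defb15, Defb23 and Defb48, and in 8.319% of all windows. It began at -35, -221 and -30 relative to the start, in that order, so that the Defb23 match lay far from the other 2. The full palindrome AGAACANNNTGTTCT was in 0 member windows and in 3 of all windows. A motif match describes the letters in the window and no binding was measured here.

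The 75th percentile of the processed signal, a background-subtracted spot intensity with no unit, was between 1348 and 2160 on the cΔex3 arrays and between 756 and 907 on the control arrays. No spot was saturated. Probes well above background, by the scanner software's own mark, made up 69% to 82.7% of probes on cΔex3 arrays and 69.3% to 71.5% on control arrays. Processed signals are given below as the scanner software wrote them, and folds between arrays and differences between groups are on log2 values relative to each array's 75th percentile. Probes differ in how brightly they bind, so levels are read mainly between arrays. A count of members over a fixed signal, or a ranking of members by brightness, depends on the probes as well. A single array has no replicate of its own, so that a fold between 2 arrays carries no error. The labels call the samples biological replicates, and the number of arrays limits the precision of every group value.

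Markers of the labelled tissue were checked first. Of 7 dermal sheath and papilla markers, 6 were tested, of which 3 were higher on the cΔex3 arrays and 0 lower (limma, adjusted over all genes tested), and Sox2 was below background on all 7 arrays. The list also holds Itga8 and Alpl, the genes of integrin α8 and alkaline phosphatase, which the sorted cells were to lack on their surface. Both were well above background on all 7 arrays, and neither was called. The count is therefore no check of the sort. The summed signal of that list was 130379 to 265845 on cΔex3 arrays and 20336 to 29691 on control arrays. All 10 hepatocyte markers were lower on the cΔex3 arrays, with summed signals of 6207 to 56499 on them and 2486131 to 2810875 on the control arrays. All 8 adipocyte markers were higher, with summed signals of 1721885 to 2493998 on cΔex3 arrays and 10894 to 82896 on control arrays. All 5 mesothelium markers were higher as well. Markers of cell types other than the labelled one were thus bright in both groups, and their part in the values of the beta-defensins was not tested.

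The beta-defensins were dim on the control arrays and differed widely among the cΔex3 arrays. Of the 42 genes, 24, 26, 29 and 40 were well above background on cΔex3 arrays 1 to 4, against 16, 13 and 14 on control arrays 1 to 3. For all named genes the shares were 80.4% to 88.9% on cΔex3 arrays and 78.4% to 80.8% on control arrays. A processed signal over 1000 was reached by 2, 8, 14 and 33 members on cΔex3 arrays 1 to 4 and by 0 on each control array. The median level of the 42 genes, on the log2 scale relative to the 75th percentile, was -6.69, -5.13, -3.30 and 3.00 on cΔex3 arrays 1 to 4, against -6.37, -7.17 and -6.42 on the control arrays. The median on cΔex3 array 1 thus lay within the range of the control arrays, and that on cΔex3 array 4 was the highest of the 7. Defb5 alone was above background on no array, and 25 of the 42 were below background on all 3 control arrays.

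**Figure D1:**
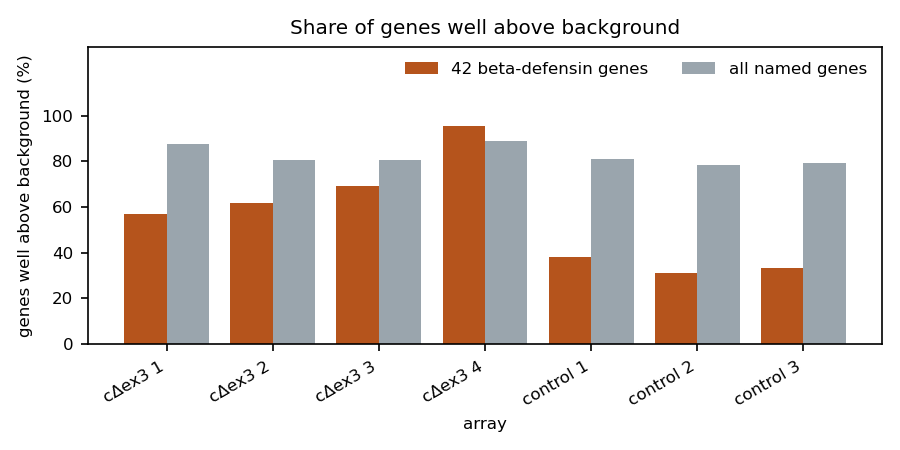
Share of genes well above background (%) on each of the 7 arrays, for the 42 beta-defensin genes (orange) and all named genes (grey); each bar is 1 array. The beta-defensin share runs between 57.1% and 95.2% on the cΔex3 arrays and between 31% and 38.1% on the control arrays, while that of all named genes stays between 78.4% and 88.9%.

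The family was picked for its variation among these arrays, so the spread of its members restates that choice and is given as a description. Among the 29 members tested, those above background on at least 3 of the 7 arrays, many passed that filter through cΔex3 arrays on which they were high, and ranges include signals below background, such as 2.85 for Defb21 on array 1. The range of the 29 over the 4 cΔex3 arrays had a median of 9.60 on the log2 scale, against 0.88 for all genes tested. The range over the 3 control arrays had a median of 0.73 for the members and 0.44 for all genes tested. A cΔex3 range over 5 was found for 26 of the 29 members and for 2.15% of all genes tested. The array 4 level was the highest of the 7 for 37 of the 42 genes, and for 28 it was at least 4-fold above every other array. Across the 42 genes, levels on cΔex3 arrays 2 and 3 correlated at 0.93, those on arrays 3 and 4 at 0.62 and those on arrays 1 and 4 at 0.16, while the control arrays correlated with each other at 0.87 to 0.90. These are Pearson correlations across genes that share probe brightness and, in part, sequence.

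**Figure D2:**
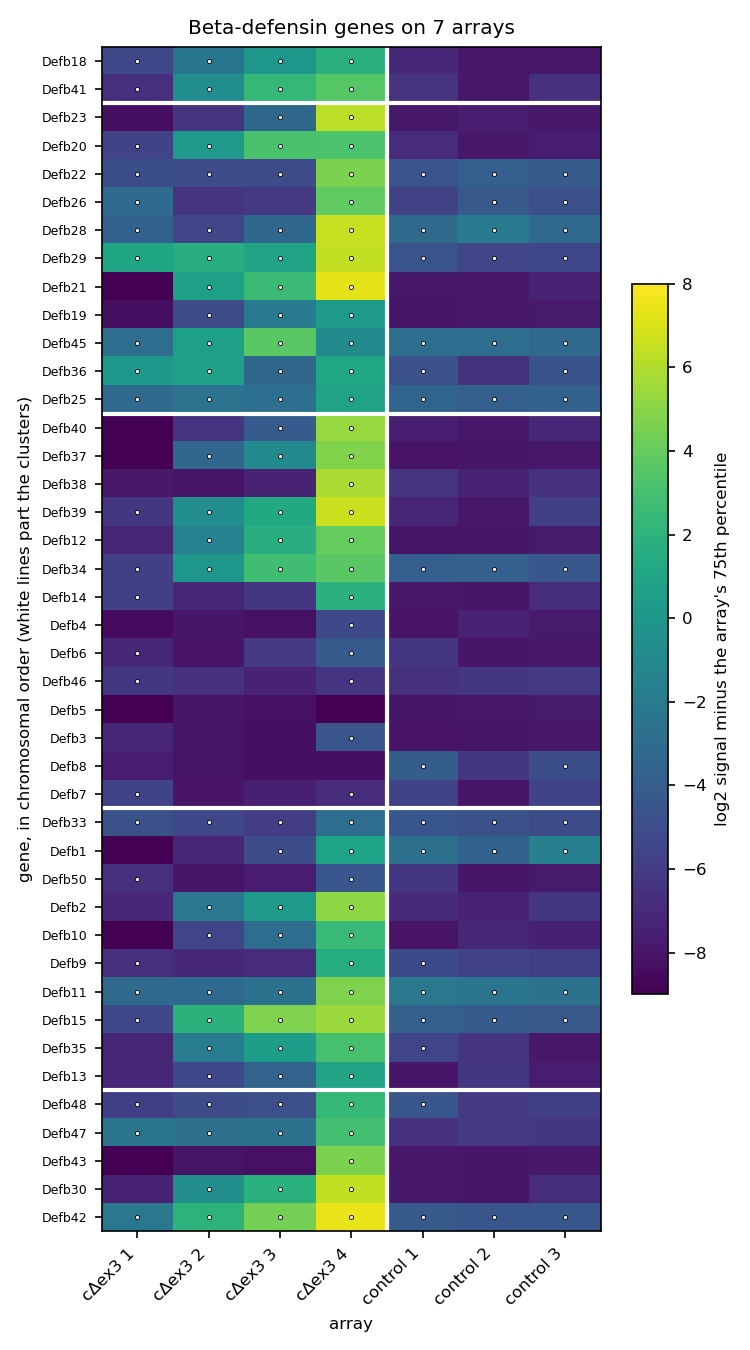
Log2 level relative to the array's 75th percentile (colour) of the 42 beta-defensin genes (rows, in chromosomal order) on the 4 cΔex3 and 3 control arrays (columns); a white dot marks a gene well above background on that array, and white lines part the 5 groups of neighbours. Most rows are brightest on cΔex3 array 4, where 40 genes carry a dot, and Defb45 and Defb36 differ from the rows around them on cΔex3 array 3.

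The members fell into a few patterns when each cΔex3 array was set against the highest control array, with a control signal below background raised to the lowest signal above it. At least 4-fold above the controls were 4, 17, 20 and 32 of the 42 genes on cΔex3 arrays 1 to 4 (9.52%, 40.5%, 47.6% and 76.2%). Of all named genes, 8.80%, 8.69%, 7.84% and 9.70% were. The members' share on cΔex3 array 1 was thus close to that of all genes. By which arrays were over that limit, 12 members were over it on arrays 2, 3 and 4, another 12 on array 4 alone, 4 on arrays 3 and 4, 3 on all 4 arrays, 1 on arrays 1, 2 and 4, 1 on arrays 2 and 3, and 9 on none.

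The 12 genes that stood over the controls on cΔex3 arrays 2, 3 and 4 but not on array 1 were Defb2, Defb12, Defb15, Defb18, Defb20, Defb21, Defb30, Defb34, Defb35, Defb37, Defb39 and Defb41. Most are known from the epididymis. Defb15, a member of the chromosome 8 group known for expression in the head of the epididymis, had processed signals of 49.1, 5187, 43762 and 95900 on cΔex3 arrays 1 to 4, against 56.5, 45.8 and 46.5 on control arrays 1 to 3. After scaling, its cΔex3 array 1 was at -5.24 on the log2 scale, below all 3 control arrays at -3.76, -4.05 and -4.28, and its other cΔex3 arrays lay far above them. Defb41, also known from the head of the epididymis, had signals of 17.5, 854, 8409 and 25254 on the cΔex3 arrays and 9.08, 3.11 and 9.62 on the control arrays, where it was below background throughout. Its second probe showed the same order of arrays. Defb20 had 40.8, 1516, 14258 and 19671 on the cΔex3 arrays, against 6.58, 3.31 and 4.38 on the control arrays, all below background.

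Other genes of this pattern were far brighter on cΔex3 array 4 than on array 3. Defb21 had signals of 2.85 (below background), 2123, 9951 and 334802 on cΔex3 arrays 1 to 4, against 3.22, 3.10 and 5.53, all below background, on the control arrays. Defb30 had 11.0 (below background), 877, 5932 and 191076 on the cΔex3 arrays, against 3.39, 3.04 and 8.14 on the control arrays, all below background. Defb39 had 23.1, 861, 4172 and 214135 on the cΔex3 arrays and 5.36, 3.15 and 16.7 on the control arrays, all below background. In Defb21 and Defb30 array 1 was below background, as the control arrays were. Defb37, a neighbour of Defb39 on chromosome 8 and like it known from the epididymis, had 2.80 (below background), 131, 877 and 58188 on the cΔex3 arrays, against 2.73, 3.03 and 3.82 on the control arrays, all below background. Defb2, first described in mouse as a gene that bacterial lipopolysaccharide induces in the airway, had 13.5 (below background), 286, 1908 and 73907 on the cΔex3 arrays and 5.94, 4.79 and 11.8 on the control arrays, all below background. Defb35 had 12.2 (below background), 367, 2410 and 18028 on the cΔex3 arrays, against 17.4, 9.13 and 4.00 on the control arrays, of which control array 1 alone was above background. Its groups overlapped through cΔex3 array 1.

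The step between cΔex3 arrays 2 and 3 was alike for these genes, and the step between arrays 3 and 4 was not. After scaling, array 3 was 3.81-fold to 8.60-fold above array 2 over the 12 genes, with a median of 5.47. Array 4 over array 3 ran from 1.06-fold for Defb20 to 50.9-fold for Defb37, with a median of 5.36. Over all 26 members above background on both arrays 2 and 3, array 3 was a median 5.28-fold above array 2, and 15 of the 26 lay between 4-fold and 16-fold. Over the 29 above background on both arrays 3 and 4, array 4 was a median 24.7-fold above array 3, with a range of 0.0416-fold for Defb45 to 903-fold for Defb28. The median over all named probes was 0.995-fold for array 3 over array 2 and 0.901-fold for array 4 over array 3.

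**Figure D3:**
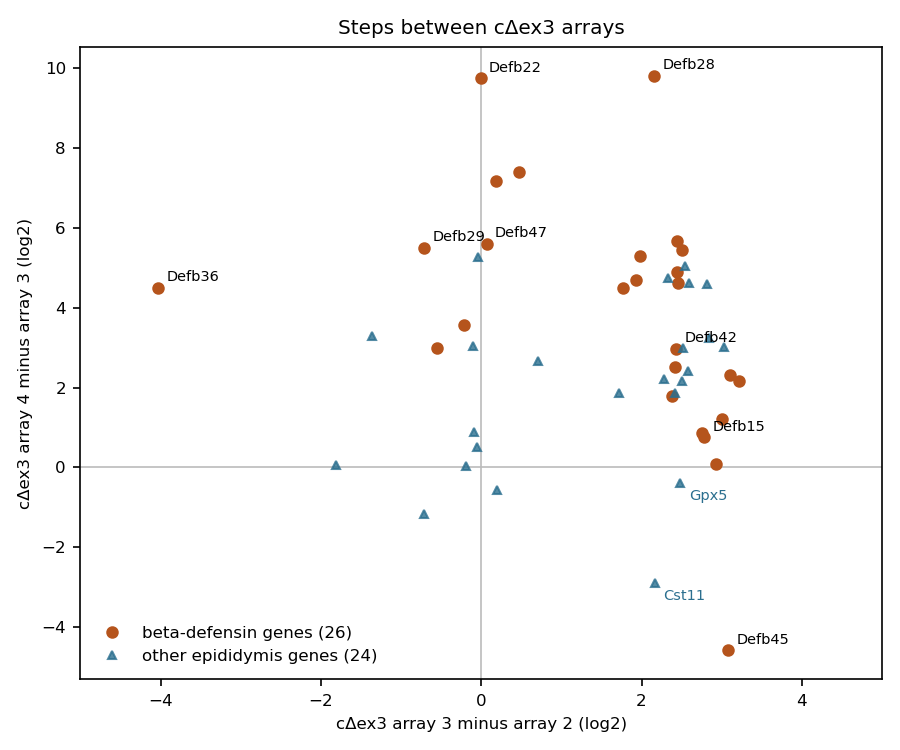
Log2 difference of cΔex3 array 3 minus array 2 (horizontal) against that of array 4 minus array 3 (vertical); each orange point is 1 of 26 beta-defensin genes and each blue triangle 1 of 24 other epididymis genes, all above background on the 3 arrays. Of the 26 members, 15 lie between 2 and 4 on the horizontal axis, and on the vertical axis most spread over the range between 0 and 10, with Defb36 far to the left and Defb45 at the bottom right.

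The 12 genes over the controls on cΔex3 array 4 alone included a known sperm-coat defensin and genes known from surface epithelia. Defb22, the mouse counterpart of the primate sperm-coat defensin DEFB126, had processed signals of 62.3, 38.3, 46.8 and 52890 on cΔex3 arrays 1 to 4, against 30.1, 49.1 and 52.0 on the control arrays, and was above background on all 7. After scaling, its cΔex3 arrays 1 to 3 were at -4.90, -5.14 and -5.15 on the log2 scale, below every control array at -4.67, -3.94 and -4.13, and array 4 lay above them. Defb38, known from the epididymis, had 7.98, 5.03, 10.67 and 122266 on the cΔex3 arrays and 9.37, 4.74 and 9.67 on the control arrays, with array 4 alone above background. It was at least 3774-fold brighter on cΔex3 array 4 than the lowest signal above background on array 3. Defb28 had 140, 31.5, 173 and 202908 on the cΔex3 arrays, against 87.3, 194 and 100.3 on the control arrays. Its second probe was below background on all 3 control arrays and had 26.2, 65.8, 421 and 427694 on the cΔex3 arrays. Arrays 2 and 3 were thus above the control arrays on that probe and, on the probe used for the gene, were not.

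Array 4 alone was also far above the rest for Defb40, with 2.93 and 16.2 (both below background), 101 and 88728 on the cΔex3 arrays, against 3.92, 3.14 and 6.95, all below background, on the control arrays. Defb48 had 32.3, 41.1, 57.4 and 10897 on the cΔex3 arrays and 35.6, 10.9 and 15.5 on the control arrays, of which control array 1 alone was above background. Defb43, whose promoter is printed above and which was chosen after its values were seen, had 2.83, 5.13, 5.52 and 53977 on the cΔex3 arrays and 3.22, 3.01 and 3.95 on the control arrays. It too was above background on array 4 alone, and there at least 1666-fold above the lowest detectable signal of array 3. Defb26, known in rodents for a part in sperm motility and also named after its values were seen, was at least 966-fold brighter on array 4 than the lowest detectable signal of array 3. Defb9, Defb11 and Defb25 completed the 12 with Defb1 and Defb14, which are described with the surface defensins.

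The 4 genes over the controls on cΔex3 arrays 3 and 4 were Defb10, Defb13, Defb19 and Defb23. Defb23, known in rodents for a part in sperm motility, had processed signals of 5.85 and 15.6 (both below background), 163 and 172860 on the cΔex3 arrays, against 3.16, 4.00 and 4.05, all below background, on the control arrays. Defb19, known from the developing testis, had 5.72 (below background), 38.9, 445 and 2590 on the cΔex3 arrays, against 2.87, 3.17 and 4.11 on the control arrays, all below background. Defb13 had 13.6 (below background), 33.5, 140 and 4112 on the cΔex3 arrays, against 3.09, 9.84 and 4.34, all below background, on the control arrays. Array 1 was below background in Defb23, Defb19 and Defb13, as the control arrays were.

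Defb29, Defb42 and Defb47 were over the controls on all 4 cΔex3 arrays. Defb29 had signals of 3859, 4151, 3125 and 185685 on cΔex3 arrays 1 to 4, against 32.0, 17.0 and 22.7 on the control arrays, so that arrays 1 to 3 were nearly equal and all 4 lay above every control array. Defb42, known from the epididymis and for a part in sperm motility in mice, had 411, 5446, 36168 and 370416 on the cΔex3 arrays, against 41.4, 34.2 and 41.8 on the control arrays. Unlike Defb15, it stood above the controls on array 1 as well. Defb47, named after its values were seen, had 338, 202, 260 and 16571 on the cΔex3 arrays, against 7.93, 10.4 and 11.5 on the control arrays, all below background. Defb47 and Defb29 thus shared near-equal levels on arrays 1 to 3.

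Defb36 and Defb45, next to each other on chromosome 2, went opposite ways on cΔex3 array 3. Defb36 had signals of 1940, 2188, 165 and 4874 on cΔex3 arrays 1 to 4, against 27.1, 8.49 (below background) and 33.8 on the control arrays. Array 3 was 0.0611-fold of array 2, where most members were higher on array 3. The second Defb36 probe had 592, 641, 94.2 and 1288 on the cΔex3 arrays, against 70.3, 58.7 and 68.3 on the control arrays, and was likewise lowest on array 3. After scaling, that probe was at -4.14 on the log2 scale on array 3, below the control arrays at -3.44, -3.69 and -3.73. Defb45, named after its values were seen, had 244, 1996, 20738 and 1124 on the cΔex3 arrays, against 104, 99.8 and 101 on the control arrays, and was the only member over the controls on arrays 2 and 3 but not 4. Its second probe had 65.2, 1356, 11189 and 632 on the cΔex3 arrays and 34.9, 28.0 and 72.3 on the control arrays, again highest on array 3.

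**Figure D4:**
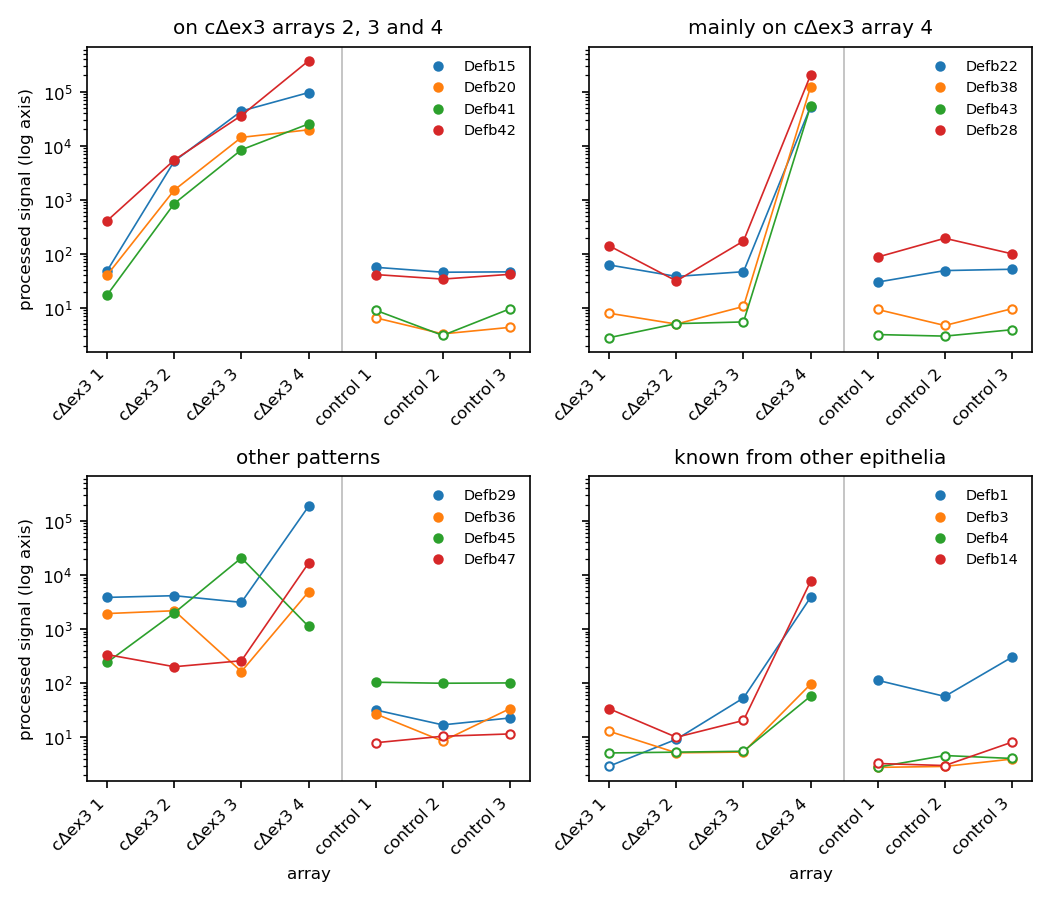
Processed signal (log axis, no unit) of 16 beta-defensin genes on the 4 cΔex3 and 3 control arrays, in 4 panels; filled points are well above background, open points are not, and lines join the points of a gene without implying an order. The top left genes are high on cΔex3 arrays 2, 3 and 4, the top right ones on array 4, and Defb45 at the bottom left peaks at 20738 on array 3.

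Of the defensins best known from surface epithelia, Defb14, Defb3 and Defb4 were dim or below background outside cΔex3 array 4. Defb1 was well above background on all 3 control arrays. Defb1, which kidney and airway epithelia make constitutively, had processed signals of 2.93 and 9.20 (both below background), 53.4 and 3862 on the cΔex3 arrays, against 113, 57.0 and 302 on the control arrays. Its cΔex3 arrays lay on both sides of the control arrays, 3 below and 1 above. Defb14, the mouse counterpart of the human skin defensin DEFB103, had 33.6, 10.0 and 20.5 (the last 2 below background) and 7658 on the cΔex3 arrays, against 3.28, 3.00 and 8.12, all below background, on the control arrays. Defb3, which infection induces in the mouse airway, had 12.9, 5.17 and 5.33 (all below background) and 95.7 on the cΔex3 arrays, against 2.78, 2.89 and 3.95, all below background. Defb4, known from mouse tongue and oesophagus, had 5.14, 5.31 and 5.52 (all below background) and 57.6 on the cΔex3 arrays, against 2.81, 4.60 and 4.06, all below background, on the control arrays. Defb3 and Defb4 were thus above background on array 4 alone, where they were at least 2.96-fold and at least 1.78-fold above the lowest detectable signal of array 3 after scaling.

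The 9 genes over the controls on no array all lie on chromosome 8, 7 of them in the group from Defb40 to Defb7, and their highest signal was 288, of Defb33 on cΔex3 array 4. Defb8, named after its values were seen, went the other way: it was below background on all 4 cΔex3 arrays, at 5.10 to 8.98, against 47.3, 9.86 (below background) and 29.4 on the control arrays, at least 2.70-fold lower in the cΔex3 group. It was above background on too few arrays to be tested. By group of neighbours, the chromosome 1 pair had 2, 2, 2 and 2 genes above background on cΔex3 arrays 1 to 4 and 0 on every control array. The chromosome 2 group had 8, 9, 10 and 11 of 11, against 6, 7 and 7. The first chromosome 8 group had 6, 4, 5 and 12 of 14, against 2, 1 and 2, and the second had 5, 7, 8 and 10 of 10, against 6, 4 and 4. The chromosome 14 group had 3, 4, 4 and 5 of 5, against 2, 1 and 1. On array 4, every group of neighbours therefore had its highest count, which the chromosome 1 pair had on every cΔex3 array.

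Between the groups, 8 of the 29 tested members were called higher on the cΔex3 arrays and 0 lower (limma, Benjamini-Hochberg adjusted p at 0.05 over 18027 genes), with 10 of 29 at an unadjusted p under 0.05. Of all genes tested, 53.1% were called, 24% higher and 29.1% lower, and nothing is read from the members' count, since the family was selected on these levels. The 8 were Defb12, Defb18, Defb20, Defb29, Defb36, Defb41, Defb42 and Defb47. Defb29 was higher by 7.63 ± 1.34 on the log2 scale (SE, limma adjusted p = 0.00307), at 2.50 ± 2.63 (SD, n = 4) in cΔex3 and -5.12 ± 0.48 (SD, n = 3) in control. Defb36 was higher by 5.00 ± 1.104 (SE, limma adjusted p = 0.00814) and by 1.72 between the group means of its second probe. Defb42 was higher by 7.30 ± 2.03 (SE, limma adjusted p = 0.0207). Where the control group was below background on every array, only a bound can be given, and Defb20 was at least 61.2-fold higher (limma adjusted p = 0.0175 for the fitted difference) and Defb41 at least 40.02-fold (0.0482). The fitted differences and adjusted p-values of such genes use signals below background.

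Defb15 was not called although its fitted difference was 5.75 ± 2.45 (SE, limma adjusted p = 0.0854), nor was Defb21, at least 63.5-fold higher (0.0923), Defb39, at least 61.5-fold (0.0600), Defb30, at least 54.5-fold (0.0622), Defb2, at least 25.8-fold (0.0918), or Defb37, at least 11.1-fold (0.137, all limma). Their SDs over the 4 cΔex3 arrays ran from 4.89 to 7.002 on the log2 scale. For Defb21, Defb30, Defb2 and Defb37 the cΔex3 mean behind the bound includes array 1, where they were below background. These bounds hold only with that signal taken as measured. Defb22 and Defb28 had differences of 1.60 ± 2.43 and 1.29 ± 2.73 (SE, limma adjusted p = 0.601 and 0.713), and Defb48 of 2.12 ± 1.95 (0.389). The 2 Defb28 probes disagreed in size: the group means of the second differed by 5.43, at least 22.4-fold, and the mean of both probes by 3.36 (limma adjusted p = 0.357). On the probe used, the Defb28 difference turned to -1.38 without cΔex3 array 4 (limma adjusted p = 0.105). Defb1 had the lowest difference, -2.47 ± 2.23 (SE, limma adjusted p = 0.383). The median difference of the 29 was 5.00, against -0.08 for all genes tested. In 8 of the 29 every cΔex3 array lay above every control array, as in 26.1% of all genes tested, and these 8 include Defb25, which was not called, and leave out Defb41. Defb36 is among the 8 on the probe used, and on its second probe the groups overlapped.

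The group difference rested on some arrays more than on others. By the file headers, cΔex3 array 1 shared a row of the slide with control arrays 1 and 2, and cΔex3 arrays 2 to 4 with control array 3. The median difference of the 29 was -0.03 within the first row and 5.56 within the second, and 4 members were called higher with the row as a block. Without cΔex3 array 1, 18 were called higher, and without control array 1, 2 or 3 the counts were 4, 3 and 3. Without cΔex3 array 4, 3 members were called lower, among them Defb22, whose difference then was -0.82 (limma adjusted p = 0.0229). With the arrays of 1 mouse only, 2 were called higher. Defb29 and Defb36 stayed past the threshold in all 20 other settings tried, Defb20 in 16, Defb42 in 15 and Defb41 in 5. These settings reuse the same 7 arrays and a family picked on its levels there, so the counts are a description.

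Part of the genes known from the same duct as most beta-defensins were high on the same cΔex3 arrays, and part were not. Of 25 genes known from the initial segment and head of the epididymis, 18 were tested, with 5 higher and 2 lower, and of 15 from its body and tail, 12 were on the array and 7 tested, with 2 higher and 2 lower (limma). Over both lists 7 of 25 were higher and 4 lower, where 24% of all genes tested were higher and 29.1% lower. Lower were Rnase10 by -2.41 ± 0.22 (SE, limma adjusted p = 0.000194), Cst13 by -1.50 ± 0.31 (0.00619), Rnase1 by -0.95 ± 0.23 (0.0115) and Sva by -1.59 ± 0.51 (0.0336), all named after their values were seen. Cldn10, a tight junction protein also named after its values were seen, was higher by 5.09 ± 0.56 (SE, limma adjusted p = 0.000403). Its signals were 4754, 3663, 1288 and 1759 on cΔex3 arrays 1 to 4, against 42.8, 21.7 and 43.0 on the control arrays, so that it was brighter on arrays 1 and 2 than on arrays 3 and 4, unlike most members. The median level of the first list was -6.65, -3.20, -1.03 and 0.96 on cΔex3 arrays 1 to 4, against -5.84, -6.74 and -6.45 on the control arrays. That of the second was -5.21, -5.26, -4.13 and 3.47, against -5.52, -6.62 and -5.25. The first list's median thus stood over 2 above every control array on cΔex3 arrays 2, 3 and 4, and the second list's on array 4 alone. The first list's array 3 was a median 4.91-fold above array 2 over 18 genes, with a range of 0.286-fold to 8.15-fold. Its array 4 was a median 5.32-fold above array 3 over 19, with a range of 0.134-fold to 38.8-fold. For the second list, array 3 was a median 2.16-fold above array 2 over 6 genes (0.390-fold to 7.05-fold), and array 4 a median 9.78-fold above array 3 over 7 (0.442-fold to 104-fold).

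Lcn5, an epididymal retinoic acid-binding lipocalin, had processed signals of 3.19 (below background), 16827, 110990 and 522837 on the cΔex3 arrays, against 2.86, 6.52 and 10.4, all below background. Gpx5, a secreted glutathione peroxidase of the epididymis, had 12.4 (below background), 28554, 196724 and 195254, against 5.47, 7.02 and 9.80, all below background, on the control arrays, and was at least 324-fold higher (limma adjusted p = 0.0484). In Lcn5 and Gpx5 array 1 was below background, as the control arrays were. Adam7, a membrane protein passed to sperm, had 1276, 7515, 55487 and 384274 on the cΔex3 arrays, against 37.1, 15.9 and 39.7 on the control arrays, and was higher by 8.44 ± 1.75 (SE, limma adjusted p = 0.00619). Like Defb42 it stood above the controls on all 4 arrays. Crisp1, a sperm-coat protein of the duct's more distal parts, had 6.64, 5.17 and 16.6 (all below background) and 303461 on the cΔex3 arrays, against 14.1, 3.10 and 4.34, all below background, on the control arrays. It was above background on array 4 alone, like Defb38 and Defb43.

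The Spag11 genes, whose peptides have a fold like that of beta-defensins, repeated the split between Defb45 and the other members. Spag11b had signals of 225, 11470, 138934 and 4855 on the cΔex3 arrays, against 66.2, 44.5 and 38.1 on the control arrays, and was highest on array 3, as Defb45 was. Its difference was 5.96 ± 1.99 (SE, limma adjusted p = 0.0395). Spag11a had 26.2, 1512, 7540 and 218067 on the cΔex3 arrays, against 8.65, 11.97 and 16.7 on the control arrays, all below background, and was highest on array 4. Cst11, an epididymal cystatin, had 51.4, 147, 813 and 142 on the cΔex3 arrays and 51.2, 36.5 and 42.3 on the control arrays, with its highest value on array 3 too. Of 13 listed genes with such a fold, alpha-defensins included, 6 were on the array and 4 of them were tested, with 1 higher and 1 lower.

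**Figure D5:**
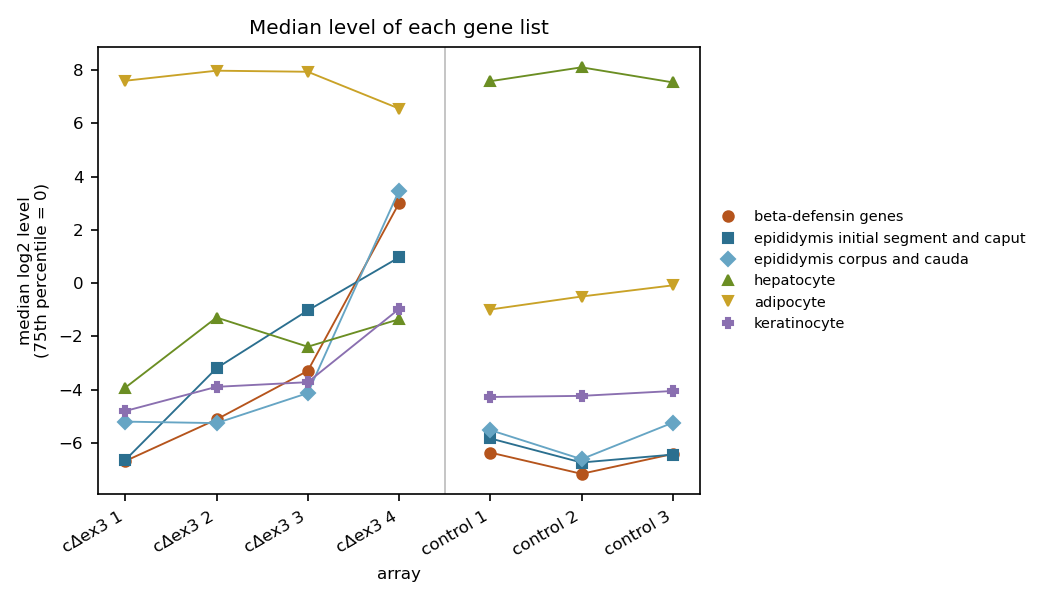
Median log2 level relative to the array's 75th percentile of the 42 beta-defensin genes and of 5 marker lists on the 4 cΔex3 and 3 control arrays; points are medians over the genes of a list, and lines join a list's points without implying an order. The beta-defensin and epididymis medians are highest on cΔex3 array 4, at 3.00, 0.96 and 3.47, whereas hepatocyte medians lie between 7.54 and 8.11 on the control arrays and adipocyte medians between 6.56 and 7.98 on the cΔex3 arrays.

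The summed signal of the initial segment and head list was 20790, 87264, 550816 and 3129778 on cΔex3 arrays 1 to 4, against 5878, 5493 and 5379 on the control arrays. It rose from array 1 to array 4, as the members' median did. On array 1 it stood above the controls, unlike that median, with Cuzd1 at 10039 and Cldn10 at 4754 there. A sum is weighted to the brightest probes. Lists of other male tract cells followed the members in part. Of 9 spermatid genes 8 were tested and 6 were higher, with a summed signal of 36611, 16102, 16001 and 414902, against 996, 1118 and 1151, so that its second brightest array was array 1, unlike the members. Of 7 Sertoli cell genes 5 were tested, with 3 higher (Wt1, also a mesothelium marker, Dhh and Inha) and 0 lower. Amh and Fshr were below background on all 7 arrays. The list's summed signal was 15695, 8244, 12031 and 13945, against 861, 776 and 1696, highest on array 1, unlike the members. Of 5 vas deferens and clear cell genes 4 were tested, with 1 higher and 0 lower. Their summed signal was 1301, 2160, 3003 and 31633, against 697, 889 and 490. Atp6v0d2, the gene called, was brightest on array 2. Of 10 keratinocyte genes 7 were tested, with 1 higher and 1 lower. Among the cΔex3 arrays, Krt5, Krt14, Krt15, Krt10, Krt17 and Lor, called lower, were brightest on array 4. Trp63, called higher, was brightest on array 1. Krt5 had 178, 153, 363 and 10605, against 129, 119 and 136 on the control arrays. Krt15 had 17.3, 23.2 (below background), 43.4 and 2569, against 23.7, 22.4 and 39.1. Krt1 was below background on all 7 arrays, Dsg3 above it on cΔex3 array 4 alone and Ivl on cΔex3 array 3 alone. The part of these lists in the members' levels was not tested.

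The 10 other genes whose levels over the 7 arrays were most like the mean of the tested members were Rnase12, Ptpn5, Tfap2b, Rhcg, Cryba4, Spag11a, Wfdc11, Lipi, Serpina1f and Spink12, with Pearson correlations of 0.996 to 0.984. Rnase12, at the top, had signals of 98.7, 1108, 8195 and 264040 on the cΔex3 arrays, against 28.0, 17.3 and 32.9 on the control arrays. The member mean itself was -5.45, -2.46, -0.96 and 3.38 on the cΔex3 arrays, against -5.61, -5.80 and -5.66 on the control arrays. Rnase12 and Spink12 were also on the epididymis lists, and these correlations, over 7 arrays in 2 groups, are a description.

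Partners and inducers of beta-defensins were called in both directions. Of 10 receptors and partners 8 were tested, with 3 higher and 1 lower. Ccr6, the chemokine receptor that several beta-defensins bind, had signals of 672, 189, 385 and 238 on the cΔex3 arrays, against 67.3, 54.7 and 147 on the control arrays, a difference of 0.91 ± 0.48 (SE, limma adjusted p = 0.148), and its ligand Ccl20 was below background on all 7 arrays. Of 19 inducers, such as interleukins, Toll-like receptors and their adaptors, all were tested, with 5 higher and 7 lower. Of 22 other antimicrobial genes 19 were tested, with 4 higher and 8 lower. Camp, the cathelicidin, had 588, 285, 603 and 782 on the cΔex3 arrays, against 770, 278 and 723 on the control arrays, and fell by 1.12 ± 0.39 on the scaled log2 values (SE, limma adjusted p = 0.0442).

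Of 19 transcription factors and receptors of the epididymal duct 18 were tested, with 8 higher and 6 lower. Pax2, a regulator of the embryonic duct, had 70.0, 88.1, 91.5 and 330 on the cΔex3 arrays, against 159011, 136665 and 110244 on the control arrays, and fell by 11.3 ± 0.48 (SE, limma adjusted p = 1.06e-05). Among the 8 higher, Pax8 rose by 3.49 ± 1.13 (SE, limma adjusted p = 0.0358). Emx2 was at least 17.5-fold higher (limma adjusted p = 0.00134) and Hoxd9 at least 27.6-fold (7.87e-05), both below background on every control array. Pax8, Emx2 and Hoxd9 were each brightest on cΔex3 array 4. Of the remaining lists, neutrophil genes had 7 of 8 tested, with 0 higher and 2 lower, macrophage genes 5 of 5, with 1 higher and 0 lower, and kidney tubule genes 4 of 6, with 1 higher and 2 lower.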

How the data were processed

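RNA of sorted cells was read on 7 one-colour Agilent mouse arrays, 1 per sample. Per the file headers, the arrays were 1 scan of 1 slide, read with Feature Extraction 10.7.1.1. The deposited processed signal is an intensity that, per the file headers, has its background subtracted on a linear scale, with no normalisation between arrays. Flags deposited per spot (other values, 0 or 1) gave detection and outliers. The authors also deposited a log2 table of the series. How it was made is not given in the sources used here, and its centring and offset stay unknown. Its columns had medians of 7.61 to 7.63 and correlated at 0.9999 or more with normexp and quantile values of the same arrays, and it served as an alternative.

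The processed signal was put on the log2 scale, spots of a probe were averaged without control and outlier spots, and the 75th percentile of the array was taken off. Through their accession and RefSeq's gene table (GRCm38.p6), 28026 of 55681 probes got a name. The grid of the array uses another build, so that coordinates are printed for RefSeq promoter windows only. Promoter sequences are RefSeq's, on GRCm38.p6, matched by symbol. Testing asked for detection well above background on 3 or more of the 7 arrays and took each gene's brightest probe by mean, which left 18027 genes. Groups came from the sample titles. They were compared with limma 3.58.1 in R 4.3.3 (lmFit and eBayes, two-sided, no covariate), and p-values were adjusted by Benjamini and Hochberg's method over the 18027 genes, with 0.05 as the threshold. All adjusted p-values printed are limma's. A group below background on every array has a bound: the brighter group's mean is set against a floor, which on each array of the dimmer group is the lowest signal above background or the probe's own, whichever is higher. Signals below background in the brighter group enter its mean unchanged, and a bound then holds only with them taken as measured. The steps were tested on simulated data and searches for motifs on made-up sequences.

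The members and gene lists were chosen with earlier results of these data known. Members named by rule were the 12 brightest on any array, the 6 widest in range in either group, the 6 largest differences in either direction and 10 set names. Further genes were picked with their values known, as the text says for members. The same was so for Sox2, Itga8, Alpl, Spag11a, Spag11b, Cuzd1, Wt1, Dhh, Inha, Amh, Fshr, Atp6v0d2 and all keratinocyte genes named. Abcb5, Rnase11, Pax8, Emx2 and Hoxd9 were picked in that way too. The values of 1 list gene are not reported here. Alternatives changed background correction, scaling, filter, probe choice, block, weights and arrays used. Normexp, planned on mean spot intensities, which were not used here, was run on the deposited median spot intensities.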

Additional observations from a re-analysis of the deposited data

Results flagged for a closer look

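In 6 of the 24 beta-defensin genes named by rule, cΔex3 array 4 stood far from the other 3 cΔex3 arrays: its gap to the nearest, as a share of the range over the 4, was 0.974 for Defb22, 0.944 for Defb38, 0.879 for Defb48, 0.871 for Defb29, 0.856 for Defb14 and 0.844 for Defb4, above Dixon's critical value at the 95% level for 4 samples. So it did in 11 of all 42 members, and in 2 of 36 other genes tried, Crisp1 at 0.902 and Pate2 at 0.853. The 36 did not take in every listed gene, so these counts do not set the members apart. Abcb5, of the first epididymis list, had signals of 10.6, 5.52 and 5.60 (all below background) and 17321 on the cΔex3 arrays. Rnase11, of the same list, was above background on cΔex3 array 4 alone as well. Pate2, a gene of the distal epididymis, had signals of 19.9, 4.85 and 4.99 (the last 2 below background) and 37610 on the cΔex3 arrays, against 3.47, 3.04 and 3.83, all below background, on the control arrays. Of all 18027 genes tested, 6.66% had 1 of the 4 cΔex3 arrays past that limit, at either end. The members were picked with their spread between these arrays known, and those named were chosen partly by level and range, so their count restates that choice and is a description. Chance puts about 1 in 20 groups past the limit, and these genes share arrays. Several of the gaps include signals below background, whose order has no meaning.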

How the results depend on the processing

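The median difference of the tested members stayed positive in all 20 other settings, at 2.60 to 6.10, and was -0.0346 within the first slide row, a split added after the data had been seen. Leaving out 1 array gave 3.44 to 5.66. The count called higher, 8, was 3 with normexp, 4 with the deposited series values, 4 with the slide row as a block, 2 with arrays of 1 mouse, and 16 both without scaling and with array weights. Leaving out 1 array gave 3 to 18. The count called lower, 0, was 1 with no filter on dim probes, 1 with a filter at 1 array, 1 with array weights and 2 with the replicate block, and 0 to 3 on leaving out 1 array. Without scaling, 10083 of all genes were called higher and 1606 lower, against 4333 and 5237, and the median of all genes moved to 1.02 from -0.08. Of the epididymis lists, 7 higher and 4 lower became 12 and 1 without scaling, and 4, 2 and 13 higher with the row block, arrays of 1 mouse and array weights; leaving out 1 array gave 4 to 13 higher and 2 to 4 lower. Defb22 reversed to -0.82 without cΔex3 array 4, against 1.603 with all arrays, and ranged up to 2.44 on leaving out another; it was -0.82 with the replicate block too. Defb28, at 1.29 with all arrays, reversed to -1.38 with the replicate block, -0.46 with array weights and -1.38 without cΔex3 array 4, none past the threshold, and was 3.36 as the mean of its probes. A milder detection mark found 29, 27 and 29 members on the control arrays, against 16, 13 and 14. Replicate numbers were not taken to pair the arrays, since no label ties them. Same-numbered deviations correlated at -0.00881, -0.000892 and 0.0182, which cannot show that no pairing exists. The cause of these shifts was not tested. Naming by a gene-name column could not be run, as no such column was used here. Signals of members near background limit what the dim arrays show.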
